A study of Homo sapiens with 12 samples.

Results

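The semaphorins and their receptors, the plexins and neuropilins, were followed in human embryonal carcinoma cells after knock-down of the transcription factor SOX2. Members were the probe sets annotated to a single gene whose symbol is that of a semaphorin of classes SEMA3 to SEMA7, of a plexin, or of neuropilin 1 or 2. This rule found 32 of 32321 probe sets, 20 for ligands and 12 for receptors. They measured 30 of the 18404 genes tested, of which 19 were semaphorins, 9 plexins and 2 neuropilins. NRP2 and SEMA4D had 2 probe sets each, and the brighter one stood for the gene.

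The 4 groups of 3 arrays each were compared, 12 arrays in all. They were 2102Ep cells with the SOX2 siRNA (siSOX2), 2102Ep cells with the control siRNA, NTera-2 cells with siSOX2 and NTera-2 cells with the control siRNA. Both siRNAs were Ambion Silencer Select reagents, and the control was Negative Control #1, a non-targeting siRNA. 2102Ep cells were transfected with Lipofectamine 2000 and NTera-2 cells with Lipofectamine RNAiMAX, and the amount of siRNA differed as well, so line, reagent and amount cannot be told apart. Transfection lasted 6 hours and RNA was taken after a further 72 hours. The study's text describes 2102Ep as nullipotent and NTera-2 as pluripotent. Each is a single line, a single siRNA against SOX2 was used and no rescue was made, so effects of this siRNA on other transcripts cannot be told apart from loss of SOX2. The labels call the replicates biological, and the p-values measure the spread between these samples only.

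Semaphorins are guidance proteins that are secreted, membrane-spanning or lipid-anchored. They act through plexins, large receptors whose intracellular domain switches off small GTPases of the Ras family and thereby loosens adhesion and the cytoskeleton. Most secreted class 3 semaphorins cannot bind a plexin well alone and need a neuropilin as ligand-binding partner beside a plexin of class A, while SEMA3E binds PLXND1 directly. Neuropilins also bind vascular endothelial growth factors (VEGFs). In embryos the family steers axons, neural crest cells and vessels.

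The siSOX2 arrays lay below the control arrays for SOX2 in both lines. SOX2 signal (log2) ran over 8.80 to 9.30 in 2102Ep siSOX2 cells and over 12.20 to 12.28 in their controls, which left 11.4% of the control signal. It ran over 11.86 to 11.95 in NTera-2 siSOX2 cells and over 12.51 to 12.63 in their controls, which left 64.0%. These shares are of RNA signal. By Western blot the study detected no SOX2 protein in the siSOX2 cells of either line. Array medians were 7.433 to 7.583, and arrays of a group correlated at 0.9825 to 0.9943. Of 13 embryonal carcinoma markers 11 were measured, and 10 or 11 of these lay above the median gene in each group. Of 9 leukocyte markers 1 did so in each group, of 12 endothelial markers 3 to 5, of 10 fibroblast markers 3 or 4 and of 11 neuronal markers 4 or 5. In RNA from whole cultures, fewer cells of a type and less RNA per cell cannot be told apart.

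After siSOX2 the called members of 2102Ep were all receptors, as 3 of 11 receptors rose (PLXNA2, NRP2 and NRP1) and 0 of 19 ligands were called by limma. In NTera-2 the ligands SEMA6D and SEMA3C and the receptor PLXNA2 rose, and NRP1 fell. A gene was called at an adjusted p of 0.05 or less in limma where it also moved at least 2-fold (1 in log2 units). In 2102Ep this made 3 of 30 members called (10.0%), all of them rises, beside 1.98% of all genes called, 1.15% that rose and 0.826% that fell. In NTera-2 it made 4 of 30 (13.3%), of which 3 rose and 1 fell, beside 0.657% of all genes, 0.310% that rose and 0.348% that fell. The adjusted p alone was passed by 9 of 30 members in each line (30.0%), against 12.7% of all genes in 2102Ep and 4.94% in NTera-2. These were 5 of 19 ligands and 4 of 11 receptors in 2102Ep, and 6 ligands and 3 receptors in NTera-2. The ligands of 2102Ep were thus left uncalled by the 2-fold threshold. The arrays of the groups did not overlap for 13 members in 2102Ep, where this held for 25.2% of all genes, and for 16 members in NTera-2, where it held for 21.3%. These shares are set side by side as a description and were not tested against each other.

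**Figure D1:**
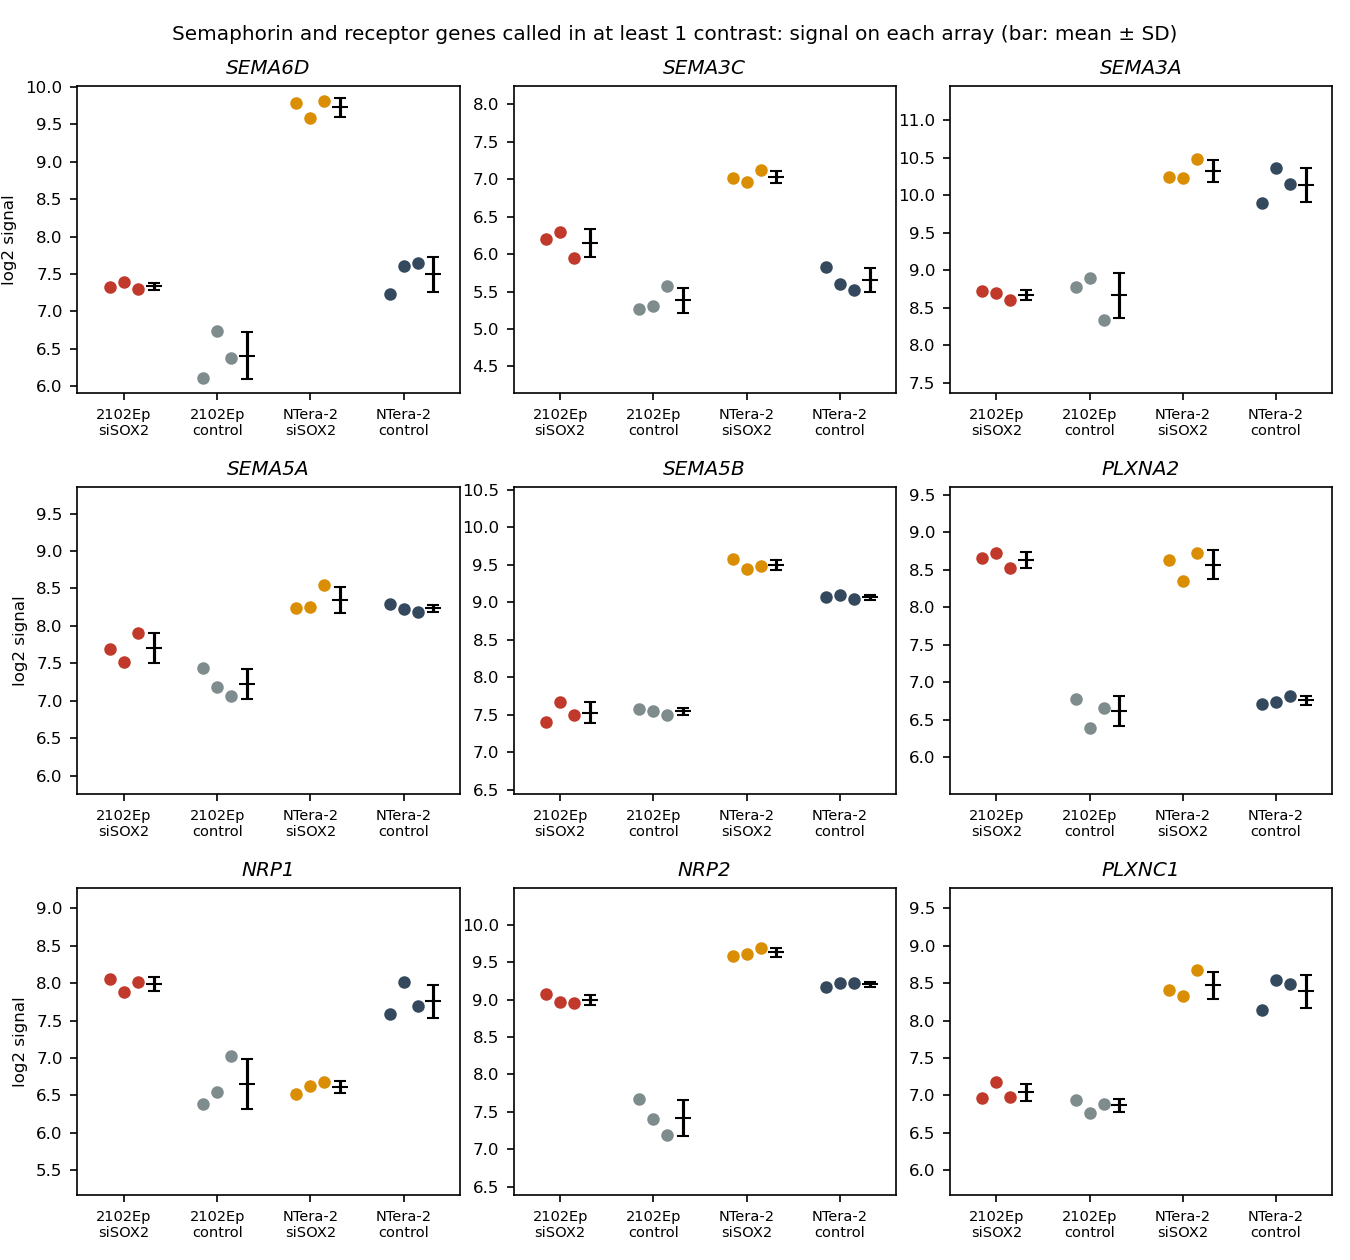
Log2 signal (vertical axis, the same span in every panel) of the 9 members called in at least 1 comparison, on each of the 12 arrays (points) by group (horizontal axis), with black bars for mean and SD. The PLXNA2 points of both siSOX2 groups lie at 8.35 to 8.72, above all control points, which end at 6.82.

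PLXNA2, a class A plexin that in mice is a receptor of SEMA6A and, with a neuropilin, of class 3 semaphorins, rose in both lines to nearly the same level. Its log2 signal was 8.66, 8.72 and 8.52 in 2102Ep siSOX2 cells, against 6.78, 6.39 and 6.65 in 2102Ep control cells. It was 8.63, 8.35 and 8.72 in NTera-2 siSOX2 cells, against 6.71, 6.73 and 6.82 in NTera-2 control cells. Every siSOX2 array lay above every control array, and the arrays of both lines overlapped within each treatment. The log2 change was 2.02 ± 0.122 (SE, n = 3 each; adjusted p = 3.04e-09, limma) in 2102Ep, or 4.07-fold. In NTera-2 it was 1.81 ± 0.122 (adjusted p = 7.24e-08, limma), or 3.51-fold. The responses differed by 0.21 (2102Ep minus NTera-2, 95% interval -0.15 to 0.58; adjusted p = 0.704, limma), which leaves differences of up to that size undetected.

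NRP1, the neuropilin that pairs with plexins for SEMA3A and binds VEGF-A, moved in opposite directions. In 2102Ep siSOX2 cells it was at 8.05, 7.88 and 8.02, against 6.39, 6.55 and 7.02 in 2102Ep control cells. In NTera-2 siSOX2 cells it was at 6.52, 6.63 and 6.68, against 7.59, 8.01 and 7.69 in NTera-2 control cells. The siSOX2 arrays thus lay wholly above the controls in 2102Ep and wholly below them in NTera-2. The change in 2102Ep was 1.33 ± 0.146 (log2, SE; adjusted p = 4.85e-06, limma), or 2.52-fold. The NTera-2 change was -1.15 ± 0.146 (adjusted p = 7.9e-05, limma), which left 45.1% of the control signal. NRP1 was therefore at about the same level in NTera-2 siSOX2 cells as in 2102Ep control cells, whose ranges overlapped.

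NRP2, the neuropilin that prefers SEMA3F and VEGF-C, rose in 2102Ep. It was at 9.07, 8.97 and 8.95 in 2102Ep siSOX2 cells, against 7.67, 7.40 and 7.19 in 2102Ep control cells. In NTera-2 it was at 9.58, 9.61 and 9.69 in siSOX2 cells, against 9.17, 9.22 and 9.22 in control cells. The groups did not overlap in either line, but those of NTera-2 lay close together and above all 2102Ep arrays. The change was 1.57 ± 0.113 (SE; adjusted p = 2.58e-08, limma) in 2102Ep, or 2.98-fold. In NTera-2 it was 0.42 ± 0.113 (adjusted p = 0.0373, limma), under 2-fold, and leaving out any single NTera-2 array took the adjusted p to between 0.0742 and 0.141. The second probe set of NRP2 gave 1.35 in 2102Ep (adjusted p = 4.25e-06, limma over all probe sets of 1 gene). In NTera-2 it gave 0.67 (adjusted p = 0.00804, limma over the same probe sets), also under 2-fold.

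Among the remaining plexins PLXND1, the receptor of SEMA3E, passed the adjusted p in 2102Ep under 2-fold. It was at 10.06, 10.05 and 9.87 in 2102Ep siSOX2 cells, against 9.72, 9.14 and 9.44 in 2102Ep control cells. These groups did not overlap, and the change was 0.56 (adjusted p = 0.00564, limma). NTera-2 gave 0.05 (adjusted p = 0.936, limma). 2102Ep control replicate 2 was the lowest of its group for 7 of 9 plexins, at a median of -0.29 from the group mean, and without it PLXND1 stood at 0.41. Without it PLXNA2 rose by 1.92. NTera-2 siSOX2 replicate 2 was also lowest for 7 of 9 plexins, at a median of -0.096. For 2102Ep siSOX2 replicate 3 this held for 6 of 9, at a median of -0.12. The other receptors lay between -0.17 (PLXNB3) and 0.44 (PLXNB2) in 2102Ep and between -0.07 (PLXNB3) and 0.43 (PLXNB2) in NTera-2, and PLXNC1 was at 0.18 in 2102Ep and 0.08 in NTera-2. The median change of the 11 receptors was 0.38 in 2102Ep and 0.08 in NTera-2, beside -0.01 and 0.04 over all genes. Both medians rested on single arrays. That of 2102Ep was 0.19 without 2102Ep control replicate 2, and that of NTera-2 was -0.014 without siSOX2 replicate 3 and 0.03 without control replicate 1.

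The stretch before the start of transcription is shown for the 4 of 5 members called in a knock-down that the RefSeq promoter table holds (assembly GRCh38.p14), because the comparison turns on these genes. In all, 26 of the 30 members had entries, with 47 windows. Each window gives the 250 bases before a start, read 5′ to 3′ on the strand of the gene. Both strands were searched for the SOX-type letters ACAATG and ACAAAG and for the TCF/LEF-type letters ATCAAAG. TCF and LEF factors carry Wnt signals. A match is printed in capitals and reads CTTTGT where ACAAAG lies on the opposite strand.

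PLXNA2 (chr1:208244385-208244634, minus strand): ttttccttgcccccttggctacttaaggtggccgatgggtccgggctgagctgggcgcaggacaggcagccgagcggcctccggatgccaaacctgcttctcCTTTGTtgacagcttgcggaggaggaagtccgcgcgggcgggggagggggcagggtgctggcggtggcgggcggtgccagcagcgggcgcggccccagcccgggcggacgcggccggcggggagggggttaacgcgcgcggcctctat
SEMA6D (chr15:47183839-47184088, plus strand): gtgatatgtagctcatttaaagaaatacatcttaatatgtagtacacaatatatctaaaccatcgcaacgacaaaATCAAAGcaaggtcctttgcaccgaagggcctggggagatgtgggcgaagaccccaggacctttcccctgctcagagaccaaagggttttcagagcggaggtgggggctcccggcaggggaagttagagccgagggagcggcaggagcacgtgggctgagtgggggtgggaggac
SEMA3C (chr7:80922390-80922639, minus strand): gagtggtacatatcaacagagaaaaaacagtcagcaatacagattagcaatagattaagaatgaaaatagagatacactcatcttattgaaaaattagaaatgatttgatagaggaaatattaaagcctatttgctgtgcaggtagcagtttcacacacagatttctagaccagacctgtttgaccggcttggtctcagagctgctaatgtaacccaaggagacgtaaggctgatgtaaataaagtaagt
NRP2 (chr2:205682251-205682500, plus strand): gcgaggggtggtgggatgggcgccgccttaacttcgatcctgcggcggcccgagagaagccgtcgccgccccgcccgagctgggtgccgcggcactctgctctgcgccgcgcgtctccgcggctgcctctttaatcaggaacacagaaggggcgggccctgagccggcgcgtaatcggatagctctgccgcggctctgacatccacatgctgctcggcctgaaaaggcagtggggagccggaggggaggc

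PLXNA2 had 1 match, 148 bases before its start, and SEMA6D had 1 TCF/LEF-type match, 175 bases before the start shown. The windows of SEMA3C and NRP2 held none of these letters. SEMA6D had 2 further starts in the table and SEMA3C 1, each with 0 matches. Over all members, ACAATG was in 1 of 47 windows, ACAAAG in 5 and ATCAAAG in 3, and 9 windows (19.1%) held at least 1 of them. Among all 35116 windows the shares were 9.29% for ACAATG, 13.7% for ACAAAG, 2.26% for ATCAAAG and 22.8% for any. The letters are a description of these windows and mark no binding site.

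SEMA6D had the largest change among the ligands in both lines. This membrane-spanning semaphorin binds PLXNA1 and takes part in heart development in chick. It was at 9.78, 9.58 and 9.81 in NTera-2 siSOX2 cells, against 7.23, 7.61 and 7.64 in NTera-2 control cells. In 2102Ep it was at 7.32, 7.39 and 7.30 in siSOX2 cells, against 6.11, 6.74 and 6.38 in control cells. All siSOX2 arrays lay above the controls of their line, and the siSOX2 level of 2102Ep lay within the range of the NTera-2 controls. The change was 2.23 ± 0.145 in NTera-2 (SE; adjusted p = 5.71e-08, limma), or 4.69-fold. In 2102Ep it was 0.93 ± 0.145 (adjusted p = 0.000222, limma), or 1.90-fold, and it passed 2-fold without 2102Ep control replicate 2 (1.09, adjusted p = 3.45e-05, limma).

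SEMA3C, a secreted semaphorin that guides neural crest cells into the outflow tract of the heart, was the other ligand called. It was at 7.02, 6.96 and 7.12 in NTera-2 siSOX2 cells, against 5.83, 5.60 and 5.52 in NTera-2 control cells. In 2102Ep it was at 6.20, 6.30 and 5.95 in siSOX2 cells, against 5.27, 5.31 and 5.57 in control cells. The siSOX2 arrays lay above the controls in both lines, on a signal below the median gene throughout. The change was 1.39 ± 0.122 in NTera-2 (SE; adjusted p = 1.68e-06, limma), or 2.61-fold. In 2102Ep it was 0.77 (adjusted p = 0.000267, limma), under 2-fold.

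Further ligands passed the adjusted p without reaching 2-fold. SEMA4A, a membrane-spanning semaphorin best known from immune cells and the retina, was lower after siSOX2 in both lines. It was at 7.44, 7.42 and 7.49 in 2102Ep siSOX2 cells, against 8.32, 8.12 and 8.23 in 2102Ep control cells (-0.77, adjusted p = 4.43e-05, limma). In NTera-2 it was at 6.97, 7.03 and 6.77 in siSOX2 cells, against 7.62, 7.42 and 7.53 in control cells (-0.60, adjusted p = 0.00165, limma). No siSOX2 array of SEMA4A reached a control array of its line.

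SEMA6B, a ligand of PLXNA4 in mice, was lower in 2102Ep siSOX2 cells, at 9.06, 9.15 and 8.96 against 9.73, 9.65 and 9.84 in 2102Ep control cells (-0.69, adjusted p = 7.98e-05, limma). In NTera-2 its siSOX2 arrays were at 9.85, 9.98 and 9.95 and its controls at 9.72, 9.70 and 9.65 (0.24, adjusted p = 0.243, limma). SEMA5A, a semaphorin with thrombospondin repeats, was higher in 2102Ep siSOX2 cells by 0.48 (adjusted p = 0.0170, limma), which did not hold without siSOX2 replicate 3 (adjusted p = 0.109) or control replicate 3 (adjusted p = 0.0676). SEMA5B, its closest relative, was higher in NTera-2 siSOX2 cells by 0.44 (adjusted p = 0.0130, limma), which did not hold without siSOX2 replicate 1 (adjusted p = 0.0722) or control replicate 3 (adjusted p = 0.0739).

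SEMA3E, the ligand of PLXND1, was at 6.59, 6.56 and 6.83 in NTera-2 siSOX2 cells, against 5.90, 5.84 and 5.90 in NTera-2 control cells (0.78, adjusted p = 0.000138, limma). SEMA3D, another secreted neuropilin ligand, was at 5.79, 5.40 and 5.70 in NTera-2 siSOX2 cells, against 6.11, 6.35 and 6.20 in NTera-2 control cells (-0.59, adjusted p = 0.0193, limma). The adjusted p of SEMA3D was above 0.05 without siSOX2 replicate 2 (0.0921) and without control replicate 2 (0.0937) or 3 (0.0640). Both genes had low signal. Across the 4 groups the mean of SEMA3E lay above 14.4% to 24.9% of genes and that of SEMA3D above 11.6% to 27.4%. SEMA3A, SEMA3C, SEMA3D and SEMA3E lie within a span of 4507706 bases on chromosome 7. In NTera-2 their changes were 0.18 (adjusted p = 0.664, limma), 1.39, -0.59 and 0.78, so they did not all share a direction.

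A further 10 ligands passed neither criterion in either line. They were SEMA3B, SEMA3F, SEMA3G, SEMA4B, SEMA4D, SEMA4F, SEMA4G, SEMA6A, SEMA6C and SEMA7A, with changes of -0.29 (SEMA4D) to 0.27 (SEMA3F) in 2102Ep and -0.15 (SEMA6A) to 0.32 (SEMA4G) in NTera-2. SEMA6A, a ligand of PLXNA2 in mice, lay at 11.92 to 12.27 on all 12 arrays. Over the 19 ligands, 5 passed the adjusted p in 2102Ep (3 higher and 2 lower), and 10 had an unadjusted p under 0.05 (22.9% of all genes did), although 0 were called there by limma. In NTera-2 6 passed (4 higher and 2 lower). The median change of the ligands was 0.04 in 2102Ep and 0.15 in NTera-2. Without any 1 of the 2102Ep arrays it lay between 0.08 and 0.11 in 2102Ep.

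**Figure D2:**
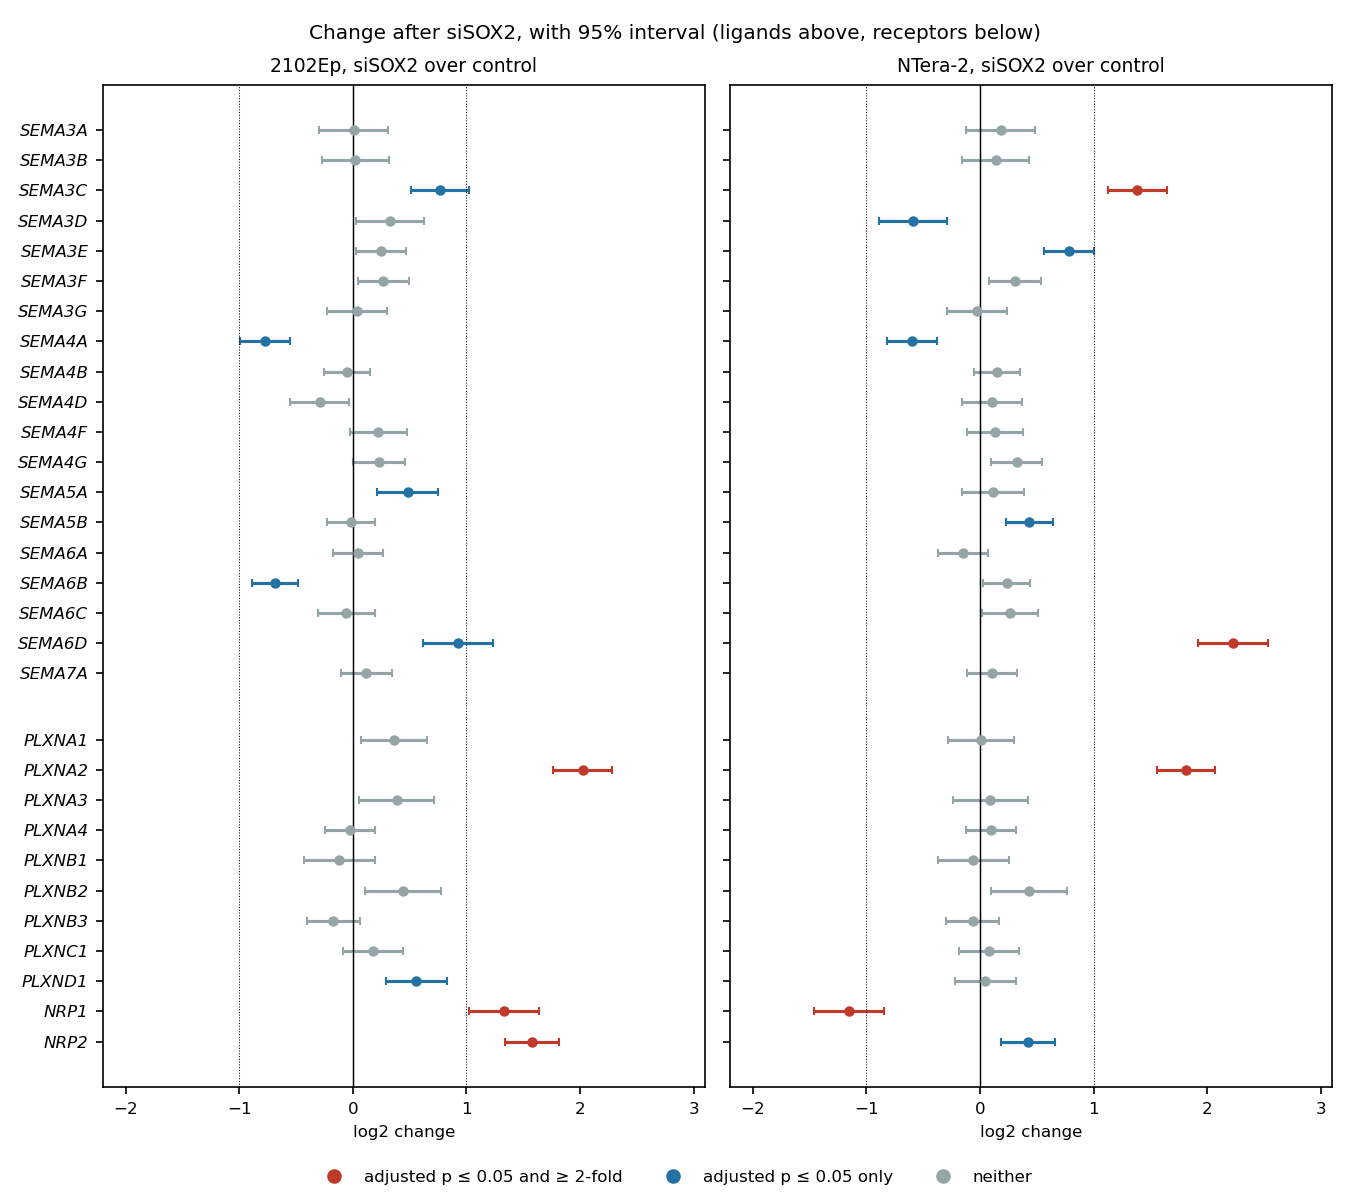
Log2 change after siSOX2 (siSOX2 over control, horizontal axis) of each of the 30 members (rows, ligands above and receptors below) in 2102Ep on the left and in NTera-2 on the right, with 95% intervals as bars and dotted lines at 2-fold. PLXNA2 lies at 2.02 and 1.81, while NRP1 lies at 1.33 in 2102Ep and at -1.15 in NTera-2.

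The response to siSOX2 was then compared between the lines by the interaction contrast, 2102Ep minus NTera-2. NRP1 and NRP2 responded more positively in 2102Ep and SEMA6D more strongly in NTera-2. These were 3 of 30 members called, beside 1.66% of all genes. The difference was 2.48 ± 0.206 for NRP1 (SE; adjusted p = 6.02e-07, limma). It was 1.15 ± 0.160 for NRP2 (adjusted p = 0.000199, limma), but 0.68 for its second probe set (adjusted p = 0.0630, limma) and 0.91 for the mean of both, under the threshold. It was -1.31 ± 0.205 for SEMA6D (adjusted p = 0.000642, limma).

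At the adjusted p alone 7 of 30 members differed in response, beside 5.20% of all genes. The other 4 were ligands, of which SEMA6B differed by -0.92 (adjusted p = 0.000406, limma) and SEMA3D by 0.91 (adjusted p = 0.00990, limma). SEMA3D reached 1.02 and was called without 2102Ep control replicate 1. SEMA3C differed by -0.62 (adjusted p = 0.0463, limma) and SEMA3E by -0.53 (adjusted p = 0.0454, limma), and both lost the adjusted p when most single arrays were left out, with values of up to 0.149 for SEMA3C and 0.112 for SEMA3E. Of the 6 members past the adjusted p in both knock-downs, PLXNA2, NRP2, SEMA3C, SEMA4A and SEMA6D had the same sign in both lines, and NRP1 did not.

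The lines also differed without knock-down. NTera-2 control cells had more NRP2, NRP1 and PLXNC1 than 2102Ep control cells, and more SEMA5B, SEMA3A, SEMA6D and SEMA5A. All 7 called members (23.3%) were higher in NTera-2, beside 7.76% of all genes called, 4.49% higher and 3.28% lower. The adjusted p alone was passed by 13 members, 11 higher and 2 lower (43.3%), which was close to the 42.4% of all genes. The arrays did not overlap for 17 of 30 members, where this held for 50.5% of all genes.

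NRP2 was higher by 1.78 in NTera-2 control cells (SE 0.113; adjusted p = 1.79e-09, limma) and NRP1 by 1.11 (SE 0.146; adjusted p = 9.43e-06, limma), on the array values given above. The NRP1 difference came to 0.97, under 2-fold, when 2102Ep control replicate 1 was left out, and to 0.98 when NTera-2 control replicate 2 was. PLXNC1, the receptor of the lipid-anchored SEMA7A, was at 8.14, 8.54 and 8.49 in NTera-2 control cells, against 6.94, 6.77 and 6.89 in 2102Ep control cells. Its difference was 1.52 (adjusted p = 4.03e-08, limma). After siSOX2 PLXNC1 lay at 8.41, 8.33 and 8.67 in NTera-2 and at 6.97, 7.18 and 6.98 in 2102Ep, so the lines did not overlap there either.

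SEMA3A, the secreted semaphorin that repels axons through NRP1, was at 9.90, 10.36 and 10.15 in NTera-2 control cells, against 8.77, 8.90 and 8.33 in 2102Ep control cells. It was higher by 1.47 (adjusted p = 3.43e-07, limma), and the siSOX2 arrays lay at 8.72, 8.70 and 8.60 in 2102Ep and at 10.24, 10.23 and 10.49 in NTera-2. SEMA5B was at 9.07, 9.10 and 9.04 in NTera-2 control cells, against 7.58, 7.55 and 7.50 in 2102Ep control cells (1.53, adjusted p = 2.17e-09, limma). The lines did not overlap for SEMA3A or SEMA5B under either siRNA, where the SEMA5B siSOX2 arrays were at 7.40, 7.67 and 7.50 in 2102Ep and at 9.58, 9.45 and 9.49 in NTera-2.

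SEMA5A was at 8.29, 8.22 and 8.19 in NTera-2 control cells, against 7.44, 7.18 and 7.06 in 2102Ep control cells (1.01, adjusted p = 6.04e-06, limma). Its siSOX2 arrays were at 7.69, 7.52 and 7.91 in 2102Ep and at 8.24, 8.25 and 8.55 in NTera-2, so the lines were apart there too. SEMA6D was higher in NTera-2 control cells by 1.08 (adjusted p = 1.14e-05, limma). Both lay close to the threshold. The SEMA5A difference came to 0.99, 0.92 and 0.98 when 2102Ep control replicate 2, 2102Ep control replicate 3 or NTera-2 control replicate 1 was left out, and that of SEMA6D to 0.93 without 2102Ep control replicate 1.

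Members past the adjusted p under 2-fold were PLXNB1 (0.70), the receptor of SEMA4D, PLXNA1 (0.67), PLXNA4 (0.63) and SEMA7A (0.50), all higher in NTera-2 control cells. SEMA4A (-0.70) and PLXNB3 (-0.38), a receptor of SEMA5A, were lower there. PLXNA2 differed by 0.14 between the control groups (adjusted p = 0.362, limma). The median difference was 0.63 over the receptors and 0.06 over the ligands, beside -0.06 over all genes. Without 2102Ep control replicate 2, the array whose plexins lay furthest below their group mean, the median was 0.49 over the receptors and -0.04 over the ligands. The ligand median was 0.11 without 2102Ep control replicate 1 or 3.

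**Figure D3:**
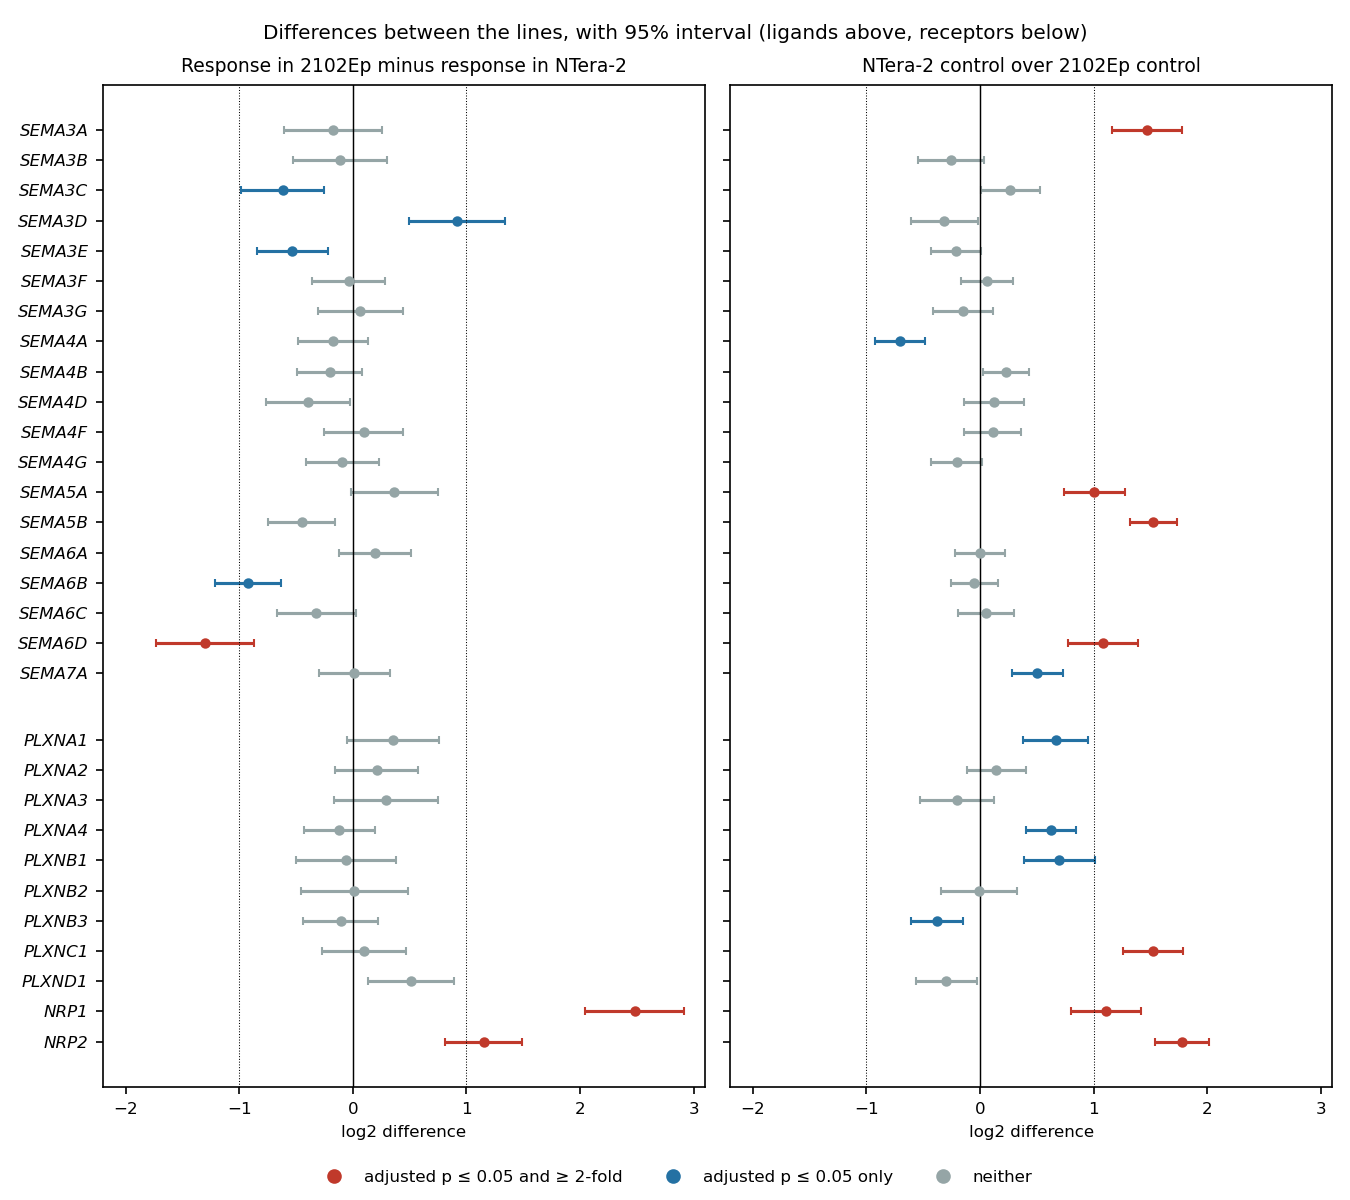
Left, the difference in log2 response to siSOX2 (2102Ep minus NTera-2), and right, the log2 difference of NTera-2 control over 2102Ep control cells (horizontal axes), for each of the 30 members (rows) with 95% intervals as bars and dotted lines at 2-fold. NRP1 lies at 2.48 on the left, and NRP2 at 1.15 on the left and 1.78 on the right.

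Of 54 measured partners of the receptors limma called 1 in 2102Ep, where 1.98% of all genes were called, and 0 in NTera-2, where 0.657% were. Of 16 measured co-receptors and alternative semaphorin receptors 0 were called in either knock-down by limma. In 2102Ep, L1CAM, an adhesion molecule that joins NRP1 in the SEMA3A receptor, was at 0.80 (adjusted p = 0.00151, limma), and FLT1, a VEGF receptor, at 0.72 (adjusted p = 0.000760, limma). In NTera-2, FLT1 was at -0.58 (adjusted p = 0.0108, limma), the VEGF receptor KDR at -0.70 (adjusted p = 0.0317, limma) and the adhesion molecule NRCAM at -0.61. Without NTera-2 control replicate 3 the adjusted p of FLT1 there was 0.0588. FLT1 was the only one of 54 measured partner genes called in the difference between the lines (1.31 ± 0.182, SE; adjusted p = 0.000209, limma), and it is named because its value was seen. Its group means were 6.87 in 2102Ep siSOX2 cells against 6.15 in 2102Ep control cells, and 8.52 in NTera-2 siSOX2 cells against 9.11 in NTera-2 control cells.

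Of 4 measured VEGF-family ligands of neuropilins 0 were called in either line by limma. In 2102Ep VEGFA was at -0.47 and PGF at 0.42, both past the adjusted p. Of 34 measured plexin effectors and intracellular partners 1 fell in 2102Ep and 0 were called in NTera-2. It was DPYSL3, a member of the collapsin response mediator family that carries semaphorin signals to microtubules. Its mean was 8.89 in 2102Ep siSOX2 cells and 10.01 in 2102Ep control cells, a change of -1.12 ± 0.142 (SE; adjusted p = 2.35e-05, limma) that came to just under 2-fold without 2102Ep siSOX2 replicate 3 (-0.998). NTera-2 gave -0.63 (adjusted p = 0.0132, limma). This did not hold without NTera-2 siSOX2 replicate 2 (adjusted p = 0.0685) or without control replicate 2 (0.0587) or 3 (0.0598). The medians of the effectors were 0.11 in 2102Ep and 0.07 in NTera-2.

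Under the adjusted p alone, effectors with higher values in 2102Ep siSOX2 cells were MICAL2 (0.87), an actin-oxidising enzyme of the MICAL family, RRAS (0.65), a GTPase that plexins switch off, FARP1 (0.53), LIMK1 (0.42) and ABL1 (0.32). RND1 (-0.60), a GTPase that binds plexins, CRMP1 (-0.51), a relative of DPYSL3, and RRAS2 (-0.42) were lower. In NTera-2, RND3, a relative of RND1, was at -0.66. Of the 54 partner genes, 13 passed the adjusted p in 2102Ep, where 12.7% of all genes did. In NTera-2 5 of them passed it, beside 4.94% of all genes. Between the control groups 10 of 54 partner genes were called, 9 higher in NTera-2 and TIAM1 lower, beside 7.76% of all genes called, 4.49% higher and 3.28% lower. Those higher in NTera-2 included FLT1 (2.96), DPYSL5 (2.75), DPYSL2 (1.97) and NRCAM (1.85).

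**Figure D4:**
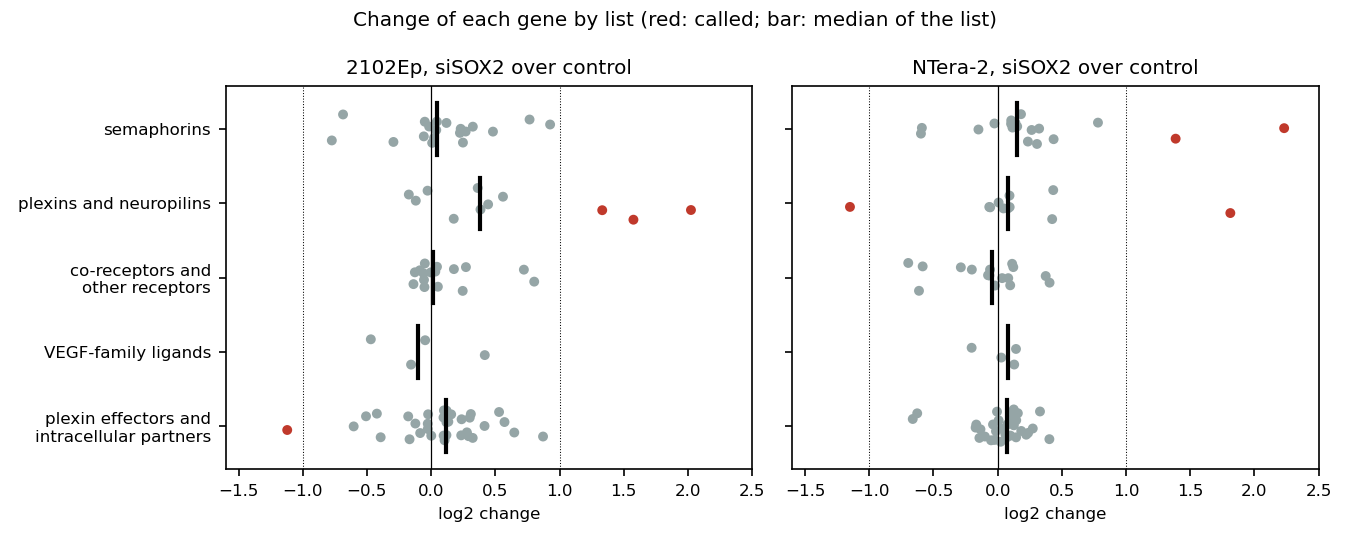
Log2 change after siSOX2 (horizontal axis) of each measured gene (points) in the 2 family groups and the 3 lists of partners (vertical axis, points spread for legibility), in 2102Ep on the left and in NTera-2 on the right, with called genes in red, medians as black bars and dotted lines at 2-fold. The receptor median lies at 0.38 in 2102Ep (0.19 without 2102Ep control replicate 2), and 1 effector, DPYSL3, is called there.

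Of the 30 members 15 had a mean over the 12 arrays at or above the median gene (8.03), and fold changes tend to be understated at low signal. By this mean PLXNA2, NRP1, SEMA6D and SEMA3C, which had called rises, were among the dimmer members. In siSOX2 cells, however, PLXNA2 lay above 62.5% of genes in 2102Ep and 60.0% in NTera-2. SEMA6D lay above 80.5% in NTera-2 siSOX2 cells. The group means of NRP1 and SEMA3C stayed below the median gene in every group. Markers of other cell types moved beside these results. Endothelial cells are a known source of neuropilins, and the summed log2 signal of 12 endothelial markers (1 of them, KDR, also in the co-receptor list) was 84.22 to 85.13 in 2102Ep siSOX2 cells, against 87.08 to 87.82 in 2102Ep controls. It was 83.83 to 85.97 in NTera-2 siSOX2 cells, against 85.55 to 85.87 in NTera-2 controls. The endothelial sums were thus lower after siSOX2 in 2102Ep and overlapped in NTera-2. Of the 12 endothelial markers 3 passed the adjusted p in 2102Ep, where 12.7% of all genes did. All 3 were under 2-fold: CDH5 (-0.79) and PECAM1 (-0.55) were lower in siSOX2 cells and VWF (0.36) was higher. The sum of 10 fibroblast markers was 69.48 to 70.44 in 2102Ep siSOX2 cells, against 66.17 to 68.46 in their controls, and 67.40 to 69.11 in NTera-2 siSOX2 cells, against 67.25 to 68.58 in their controls. The fibroblast sums were higher after siSOX2 in 2102Ep and overlapped in NTera-2. Only the fibroblast marker POSTN was called among markers of other cell types in a knock-down, at -1.69 in NTera-2. The neuronal sum was 80.67 to 81.59 in 2102Ep siSOX2 cells, against 80.88 to 82.94 in their controls, and 86.90 to 88.54 in NTera-2 siSOX2 cells, against 85.41 to 86.90 in their controls. The leukocyte sum was 55.97 to 57.86 in 2102Ep siSOX2 cells, against 56.48 to 57.03 in their controls, and 55.08 to 56.64 in NTera-2 siSOX2 cells, against 55.75 to 56.85 in their controls. The leukocyte sums overlapped in both lines. The sum of 11 embryonal carcinoma markers was 119.8 to 121.5 in 2102Ep siSOX2 cells, against 124.2 to 126.9 in their controls, and 115.8 to 118.1 in NTera-2 siSOX2 cells, against 118.3 to 121.6 in their controls, lower after siSOX2 in both lines. The part of these markers in the changes of the family was not tested.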

How the data were processed

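RNA from 12 cultures was hybridised to Affymetrix Human Gene 1.0 ST arrays, whose probes lie along the whole transcript. The authors deposited 1 log2 signal for each probe set and array. Per the study's methods they computed it by robust multi-array averaging, in which probes are background-corrected, quantile-normalized and summarised by median polish. The log base was taken from the range of the values, 1.570 to 14.98. Precision is limited by the number of arrays, and values of this kind compress small signals. The submitters' processing notes name limma, with no version.

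Of 32321 probe sets, 19158 were annotated to 1 gene, 1388 to several and 11775 to none; SEMA4C had none annotated to it alone and is not analysed here. For 637 genes with several probe sets the brightest was used. All 12 arrays were fitted together in limma 3.58.1 (R 4.3.3, data.table version 1.17.8) with a mean per group and 4 contrasts, and p-values were adjusted by Benjamini-Hochberg over 18404 genes. All adjusted p-values are limma's. A gene was called at an adjusted p of 0.05 or less with a change of at least 1 (log2). With 3 arrays against 3, an exact permutation test cannot go below 0.1. The fit was tested on simulated data. Plots were drawn with matplotlib 3.10.9 under Python 3.11.15.

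Every member is accounted for. Array values are given for members called in at least 1 contrast, and others are named where they passed the adjusted p in a knock-down. The members and lists were chosen with earlier results of these data known. Partner lists held 17 co-receptors and alternative receptors, 5 VEGF-family ligands and 36 effectors, of which ITGA1, VEGFD, RHOD and GIPC1 were not measured by a probe set of 1 gene. Same-numbered siSOX2 and control arrays did not deviate together (r = 0.0652, 0.179 and 0.128 in 2102Ep and -0.249, -0.206 and 0.136 in NTera-2), so the numbers were not taken as pairs. The settings tried were a block for the replicate number, a fit on the compared groups alone, no dim genes (mean below the median gene), no fold threshold, median centring, quantile normalization again, all probe sets, the mean of probe sets, a spread trended on signal, and leaving out each array.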

Additional observations from a re-analysis of the deposited data

Results flagged for a closer look

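NRP1, NRP2 and SEMA6D responded differently in the lines by the test of the difference itself. NRP1 differed by 2.48 on the log2 scale (2102Ep minus NTera-2; 1.33 in 2102Ep and -1.15 in NTera-2), NRP2 by 1.15 (1.57 and 0.42) and SEMA6D by -1.31 (0.93 and 2.23). The NRP2 value is that of its brighter probe set. Its second probe set differed by 0.68 (adjusted p = 0.0630, limma) and the mean of both by 0.91, so neither was called. NRP1 was higher in all 3 siSOX2 arrays of 2102Ep and lower in all 3 of NTera-2 than any control array of that line. Line, transfection reagent and siRNA amount cannot be told apart, and more SOX2 RNA signal was left in NTera-2 (64.0%) than in 2102Ep (11.4%). The study's Western blot detected no SOX2 protein after siSOX2 in either line. A part of the remaining SOX2 RNA in these differences was not tested.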

How the results depend on the processing

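No alternative turned the direction of a called member. With genes below the median signal left out, 15 members remained, and 1 was called in 2102Ep, 0 in NTera-2, 1 in the difference and 3 between the control groups. Of all 9202 genes kept, 212, 66, 166 and 866 were called in the same order. This setting itself removed PLXNA2, NRP1, SEMA6D, SEMA3C, PLXNC1, SEMA5A and the partner gene FLT1, so their calls were not tested again. Among the genes kept, the ligand median in 2102Ep was -0.016 over 9 genes and the receptor median between control groups 0.33 over 6. In the difference 0 of 39 partner genes were called, beside 166 of the 9202 genes. With no fold threshold 9, 9, 7 and 13 members were called, and 13, 5, 5 and 34 partner genes, in the order 2102Ep, NTera-2, difference and control groups. All genes then came to 2330, 909, 957 and 7809 calls, against 364, 121, 305 and 1429.

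Leaving out single arrays gave 3 to 4 members in 2102Ep, 4 in NTera-2, 3 to 4 in the difference and 5 to 7 between control groups. Of all 18404 genes, 353 to 391, 122 to 129, 297 to 331 and 1388 to 1520 were then called, in the same order. Partner genes came to 0 to 1 in 2102Ep (0 without siSOX2 replicate 3) and 1 to 2 in the difference (2 without NTera-2 control replicate 2). The ligand median in 2102Ep ranged over 0.078 to 0.111 and between control groups over -0.036 to 0.11. The receptor median ranged over 0.19 to 0.498 in 2102Ep, over -0.014 to 0.135 in NTera-2 and over 0.49 to 0.67 between control groups. With the replicate number as a block the calls of members stayed at 3, 4, 3 and 7, and 365, 121, 307 and 1429 genes were called in all. The adjusted p of NRP2 in NTera-2 was then 0.0524, with median centring 0.0823 and with quantile normalization again 0.0920. In the difference, that of SEMA3C was 0.0734 with the block, 0.0637 with median centring and 0.0528 with quantile normalization again. It was 0.0524 with all probe sets and 0.0525 with the trended spread. That of SEMA3E in the difference was 0.0574 with the block and 0.0540 with the trended spread. The cause of these shifts was not tested. The mean of the probe sets took NRP2 in the difference to 0.91. Low signal limits the dimmer members, and the number of arrays limits all.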
